A study of Mus musculus with 2 samples.

Results

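The p53 pathway was examined through 9 genes: Trp53, which encodes p53 itself, its inhibitors Mdm2 and Mdm4, and the p53-induced genes Trp53inp1, Ccng1, Sesn1, Sesn2, Zmat3 and Phlda3. Members were taken as every probe set whose platform annotation names only 1 of these genes, which gave 20 probe sets for 8 of the 9 genes, out of 45101 probe sets and 18193 singly named genes in all. Trp53 was not analysed here. The rule that picks the probe sets uses names and no measured value.

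The series holds 2 Affymetrix arrays of RNA from cultured mouse B cells, 1 titled miR-155 knockout and 1 titled wild type, both from male animals of a C57 background obtained from the Jackson Laboratory. The genotype entries follow the titles, and the source names give the opposite genotype for both arrays. Each array is therefore called by its title (titled KO, titled WT), and if the source names hold, every sign below turns over. The series text speaks of activated B cells, whereas the growth protocol describes haematopoietic progenitors kept for 6 days with G-CSF and stem cell factor. All cells received cycloheximide, an inhibitor of translation, at 100 ug/ml for 8 min before harvest, so both groups carry this treatment. The sources used here do not give age, the number of animals behind each array or the knockout allele.

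p53 is a transcription factor that is stabilised by DNA damage and other stress and that switches on genes for cell cycle arrest, DNA repair, metabolic control and apoptosis. MDM2 is a ubiquitin ligase that marks p53 for degradation and is itself a p53 target, and MDM4 is a related protein that binds and blocks p53 and pairs with MDM2. In B cells the pathway is restrained during rapid proliferation and antibody gene diversification, when programmed DNA breaks occur. miR-155 is a microRNA induced on B cell activation, and TP53INP1 has been reported as one of its targets in other cells.

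The microRNA that the groups are named for is shown with its seed, bases 2 to 8, in capitals. It comes from RefSeq, build GRCm38.p6, chr16:84714143-84714165, plus strand.
mmu-miR-155-5p: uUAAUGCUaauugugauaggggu

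The promoters of the members bear on the same pathway, because p53 acts through a decamer consensus in DNA. RefSeq promoter windows of 300 bases (250 before and 50 after the annotated start, GRCm38.p6) were present for 6 of the 8 measured members, with 8 windows in all. The p53 decamer consensus reads the same on both strands, and no mismatch to it was allowed. It matched 3 of these 8 windows, against 8.36% of all 32851 windows. They are shown because they are the members' windows that hold the consensus, printed 5′ to 3′ on the gene's strand with the matched bases in capitals. Mdm2 is at chr10:117710709-117711008, minus strand, Ccng1 at chr11:40755237-40755536, minus strand, and Sesn1 at chr10:41887189-41887488, plus strand.
Mdm2: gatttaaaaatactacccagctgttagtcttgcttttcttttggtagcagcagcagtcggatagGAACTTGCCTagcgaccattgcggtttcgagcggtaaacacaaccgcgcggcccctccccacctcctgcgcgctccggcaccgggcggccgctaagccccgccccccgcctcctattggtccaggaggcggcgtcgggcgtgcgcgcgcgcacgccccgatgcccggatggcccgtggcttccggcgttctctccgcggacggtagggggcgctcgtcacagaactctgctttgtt
Ccng1: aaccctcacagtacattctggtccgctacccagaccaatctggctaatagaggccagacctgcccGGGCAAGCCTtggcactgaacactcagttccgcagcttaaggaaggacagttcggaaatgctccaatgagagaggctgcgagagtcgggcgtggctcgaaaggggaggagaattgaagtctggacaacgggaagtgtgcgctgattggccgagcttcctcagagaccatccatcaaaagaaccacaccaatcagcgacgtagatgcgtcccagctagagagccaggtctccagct
Sesn1: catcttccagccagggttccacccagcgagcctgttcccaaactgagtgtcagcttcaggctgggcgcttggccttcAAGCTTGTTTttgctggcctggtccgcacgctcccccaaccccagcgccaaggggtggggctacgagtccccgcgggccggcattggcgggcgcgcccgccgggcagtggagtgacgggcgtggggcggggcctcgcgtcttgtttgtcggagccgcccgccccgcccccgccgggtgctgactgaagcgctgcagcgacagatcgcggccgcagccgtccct

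The match lay 186 to 177 bases before the annotated start in Mdm2, 185 to 176 in Ccng1 and 173 to 164 in Sesn1. The response elements of Mdm2 that are known from the literature lie in its first intron, outside this window. The windows of Mdm4, Phlda3 and Sesn2, and the other window of Sesn1, held no match. None of the 8 windows held a pair of exact decamers 0 to 13 bases apart, an arrangement found in 24 of the 32851 windows. A pair with any mismatched base was not counted. In Ccng1 the 10 bases directly before the match depart from the consensus at a single base and were not marked. A match describes letters and is not a measured binding site.

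Each value is a log2 intensity from a single array, and with 1 array per group no difference could be tested, so sizes are given with no p-value. A probe set was called expressed when its mean of both arrays reached 6.71, the median over all non-control probe sets, and 17 of the 20 member probe sets passed. As a technical yardstick, and not a replicate error, the 2 brightest expressed sets were compared within each of 4906 genes, and their differences lay 0.084 apart at the median and 0.31 apart at the 95th percentile. Probes differ in how strongly they bind, so levels of different probe sets are not read as relative RNA amounts. The members were therefore not ordered by level. The marker sums given below add levels of different sets, so the brightest sets weigh most in them. Mir155hg, the host transcript of miR-155, stood at 10.88 on the array titled KO and 6.63 on the array titled WT, which goes against the titles. All 9 measured B cell markers were expressed, as were 2 of 10 markers of neutrophils and their precursors and 2 of 8 of stem and progenitor cells. So were 8 of 9 macrophage and monocyte, 6 of 8 T cell and 5 of 9 dendritic cell markers. Passing this level therefore does not settle which cells were on the arrays. On these arrays fewer cells of a type and less RNA per cell cannot be told apart.

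**Figure D1:**
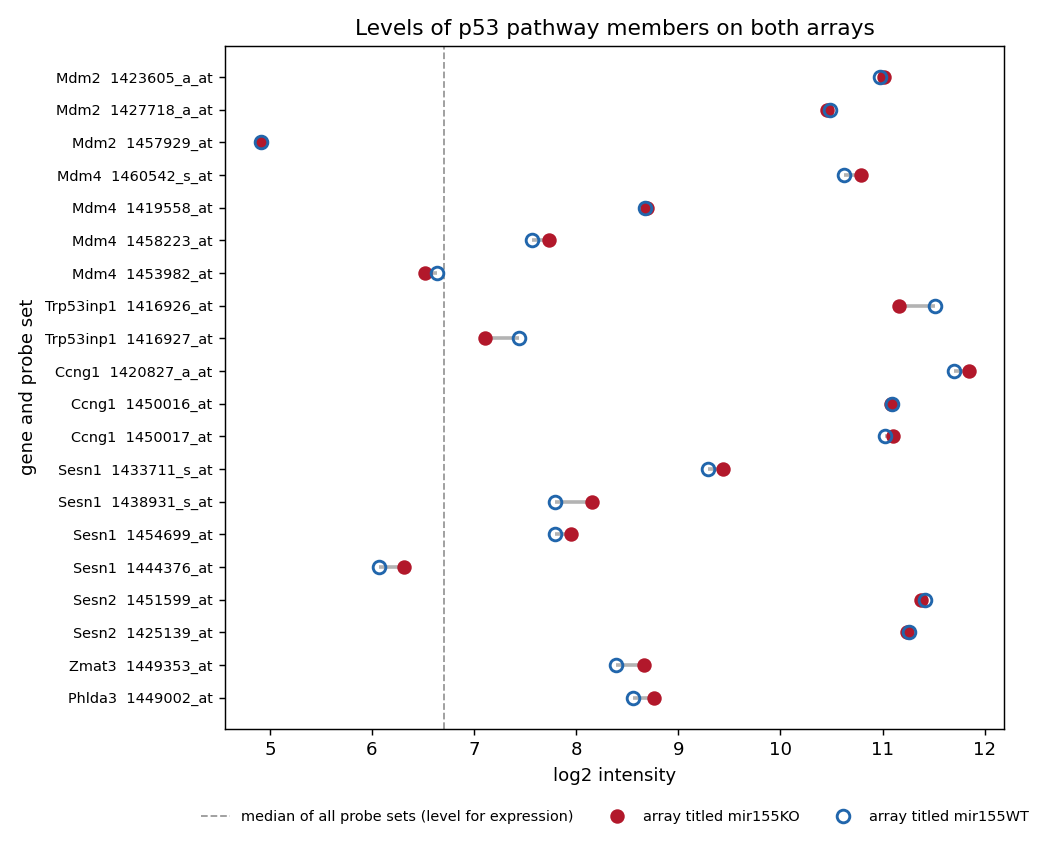
Log2 intensity (horizontal axis) of all 20 member probe sets (vertical axis, grouped by gene) on the array titled mir155KO (filled red) and the array titled mir155WT (open blue), with a grey bar joining them and a dashed line at 6.71, the level for expression. Trp53inp1 is lower on the array titled KO at both of its probe sets, and the sets of Mdm2 and Sesn2 nearly coincide.

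No member differed by 0.5 or more on the log2 scale. Trp53inp1 was lower on the array titled KO, and Mdm2 and Sesn2 lay close to 0. At their sets of highest mean level Mdm4, Ccng1, Sesn1, Phlda3 and Zmat3 were higher by 0.15 to 0.28. Across the processing alternatives Ccng1 ran from -0.01 to 0.15 and Mdm4 from 0.03 to 0.16. The direction of Ccng1 and the size of Mdm4 were thus not settled. With each gene taken at its probe set of highest mean level, 6 of 8 members were higher and 2 lower on the array titled KO, with a median of 0.15. Among all 10717 expressed genes 56.9% were higher, 0.681% were higher by 0.5 or more and 1.31% were lower by 0.5 or more, with a median of 0.03. By probe set, 11 of the 17 expressed member sets were higher and 6 lower, against 58.8% higher of all 19171 expressed singly named sets. The members' median was 0.07 when all sets of a gene were averaged and 0.03 with plain _at sets only, so it rests on which set stands for a gene. After quantile normalization and loess subtraction it was 0.12 and 0.11, against -0.002 and -0.01 over all expressed genes.

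Mdm2, the ubiquitin ligase that limits p53, was nearly equal on both arrays. Its brightest probe set, 1423605_a_at, read 11.02 on the array titled KO and 10.97 on the array titled WT, a difference of 0.04. The set 1427718_a_at read 10.45 and 10.48, a difference of -0.03. The expressed sets thus lay on opposite sides of 0, and both differences were smaller than the median disagreement between sets of a gene. A set of Mdm2 below the level for expression, 1457929_at, read 4.91 on each array.

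Mdm4, which binds the transactivation domain of p53, was slightly higher on the array titled KO at all 3 expressed probe sets. The set 1460542_s_at read 10.79 on the array titled KO and 10.62 on the array titled WT, a difference of 0.16, or 1.12-fold. The set 1458223_at read 7.73 and 7.56 (0.17), and 1419558_at read 8.70 and 8.67 (0.03). The 3 expressed sets come from 3 different target sequences. The set 1419558_at changed sign after quantile normalization and after loess subtraction (-0.03 in each case), and the set below the level for expression, 1453982_at, read 6.52 and 6.63 (-0.12), opposite to the others.

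Trp53inp1, a stress-induced cofactor that promotes p53 phosphorylation and autophagy, was the member farthest from 0. Its brightest probe set, 1416926_at, read 11.16 on the array titled KO and 11.51 on the array titled WT, a difference of -0.35, or 1.27-fold lower. The dimmer set 1416927_at read 7.11 and 7.44, a difference of -0.34. Both sets gave the same direction and nearly the same size, 0.012 apart. They were designed from 1 target sequence and are not independent reads of the gene. Of the 10717 expressed genes 3.30% had a lower difference than Trp53inp1, and its size passed the 95th percentile of disagreement between sets of a gene (0.31). At the set of highest mean level every other measured member lay under that value, which does not measure spread between samples. Across the alternatives the difference of Trp53inp1 ran from -0.38 to -0.34. Its paralog Trp53inp2, at 7.95 on the array titled KO and 7.92 on the array titled WT, differed by 0.04.

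Ccng1, which encodes cyclin G1, a p53 target that recruits a phosphatase to MDM2, differed little. Its brightest set, 1420827_a_at, read 11.84 on the array titled KO and 11.70 on the array titled WT, a difference of 0.15. The sets 1450016_at (11.09 and 11.09, -0.01) and 1450017_at (11.10 and 11.02, 0.08) come from the same target sequence. The 3 sets spanned 0.16, which is as wide as the largest of their differences, so the direction of Ccng1 was not settled, and with plain _at sets only it was -0.01. Its paralog Ccng2, which is not a classical p53 target, differed by -0.12 (8.71 and 8.83).

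The sestrins, stress-induced inhibitors of mTORC1 signalling, did not share a direction. Sesn1 was higher on the array titled KO at all 3 expressed probe sets. The set 1433711_s_at read 9.44 on the array titled KO and 9.29 on the array titled WT (0.16), 1438931_s_at read 8.16 and 7.79 (0.36), and 1454699_at read 7.95 and 7.79 (0.16). The 3 expressed sets come from 2 target sequences. The dimmest set, 1444376_at, was below the level for expression at 6.31 and 6.07 and differed by 0.24. The 0.36 of 1438931_s_at was the highest difference of any member set, and the other expressed sets of Sesn1 were less than 0.5 times that size.

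Sesn2, also known to be induced by ATF4 during amino acid and endoplasmic reticulum stress, was nearly equal on both arrays. The set 1451599_at read 11.38 on the array titled KO and 11.42 on the array titled WT (-0.04), and 1425139_at read 11.23 and 11.26 (-0.03). Both sets come from 1 target sequence, and both values lay under the median disagreement between sets of a gene. The third family member, Sesn3, which is known as a FOXO target, differed by 0.09 (10.67 and 10.57), with expressed sets from -0.01 to 0.09.

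Zmat3 and Phlda3 were each read by a single probe set, so neither has a second read. Zmat3, an RNA-binding zinc finger protein that acts in tumour suppression downstream of p53, read 8.66 on the array titled KO and 8.39 on the array titled WT. Its difference of 0.28, or 1.21-fold, was the highest of the members, and 5.91% of expressed genes were higher than it. Phlda3, a pleckstrin homology domain protein that competes with AKT for membrane lipids, read 8.77 and 8.55, a difference of 0.21, or 1.16-fold. Of all expressed genes 11.2% were higher than Phlda3.

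**Figure D2:**
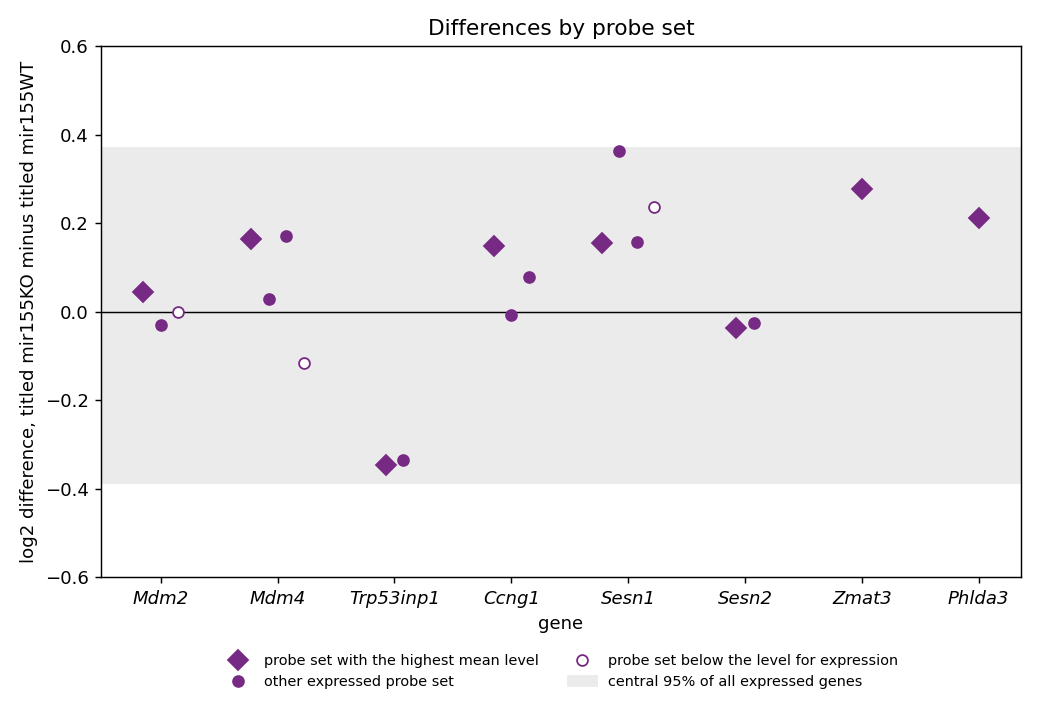
Log2 difference, array titled mir155KO minus array titled mir155WT (vertical axis), for every probe set of the 8 measured members (horizontal axis); diamonds mark the set of highest mean level, filled circles other expressed sets, open circles sets below the level for expression, and the grey band the central 95% of all expressed genes (-0.39 to 0.37). All 20 points lie inside the band, with both sets of Trp53inp1 near its lower edge.

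The members that hold the decamer consensus in a promoter window (Mdm2, Ccng1 and Sesn1) differed by 0.04 to 0.16. Those whose windows hold none (Sesn2, Mdm4 and Phlda3) differed by -0.04 to 0.21, so these ranges overlap. Trp53inp1 (-0.35) and Zmat3 (0.28), the lowest and the highest member, had no promoter window and are in neither range. Each gene is taken at its set of highest mean level. With so few genes, the overlap cannot tell whether a match goes with a difference.

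The wider p53 pathway was described through lists of other target genes and of regulators. These lists were chosen with earlier results of these data known. Their counts and shares, here and below, therefore describe the chosen genes only. How far that choice shaped their contrasts with the remaining genes was not tested. Of 31 expressed genes in 4 lists of p53 targets, 19 were higher and 12 lower on the array titled KO, with a median of 0.04. On both arrays 30 of the 31 reached the level for expression, and the remaining gene, Sfn, is among the 12 lower. The share higher, 61.3%, was near the 56.9% of all expressed genes. Of these 31 genes 0 were higher by 0.5 or more and 3 were lower by 0.5 or more, namely Pmaip1, Apaf1 and Cdkn1a, against 1.31% lower by that size among all expressed genes. The median was -0.004 with the filter at the 75th percentile and -0.001 after loess subtraction, so the direction of these targets as a group was not settled.

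Genes of arrest and checkpoint control split evenly, with 4 of 8 expressed genes higher, 4 lower and a median of 0.04. That median was -0.004 after loess subtraction, -0.005 with averaged sets and -0.11 with the filter at the 75th percentile, so its sign was not settled. Among all expressed genes 56.9% were higher. Cdkn1a, which encodes the CDK inhibitor p21, was the lowest. It read 11.91 on the array titled KO and 12.51 on the array titled WT, a difference of -0.60, or 1.51-fold lower, and its other expressed set differed by -0.69. An upstream promoter window of Cdkn1a (chr17:29090729-29091028, plus strand, GRCm38.p6) held 2 exact decamers 12 bases apart. The 10 bases directly after the later decamer depart from the consensus at a single base, so the exact search did not mark them. The exact pair is shown in capitals because no member window held such a pair.
Cdkn1a: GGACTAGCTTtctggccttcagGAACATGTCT
Sfn, an inhibitor of mitotic entry, differed by -0.28 at levels near the expression limit (6.67 and 6.95). It reached that limit only on the array titled WT and is counted among the 4 lower. The highest of this list were Gtse1 (0.21), a protein of the mitotic spindle that also restrains p53, and Ptprv (0.16).

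Apoptosis genes held the largest differences of the pathway. Of 8 expressed genes 3 were higher and 5 lower (37.5% higher, against 56.9% of all expressed genes), with a median of -0.09. A further 4 measured genes (Tnfrsf10b, Dram1, Eda2r and Perp) were below the level for expression. Pmaip1, which encodes the BH3-only protein NOXA and was read by a single expressed set, was at 11.74 on the array titled KO and 13.08 on the array titled WT. Its difference of -1.34 was a 2.53-fold lower level, and among all expressed genes 0.14% were lower and 0.0187% higher by 2-fold or more. Apaf1, the scaffold of the apoptosome, read 10.12 and 10.81 (-0.69), and its other expressed set differed by -0.55. In contrast Bbc3, which encodes PUMA, read 11.08 and 11.07 (0.01) and Fas 10.23 and 10.30 (-0.07). The highest genes of this list were the nuclease gene Aen (0.14) and Ei24 (0.13).

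Targets in DNA repair and metabolism were mostly higher, at small size. Of 10 expressed genes 9 were higher and 1 lower, with a median of 0.11, against 56.9% higher and a median of 0.03 over all expressed genes. The highest were Xpc (0.25) and the translesion polymerase gene Polh (0.24), and XPC recognises bulky DNA lesions. Tap1, a peptide transporter of antigen presentation, was the lowest (-0.15), followed by the mTORC1 inhibitor gene Ddit4 (0.03). After loess subtraction 7 of these genes were higher and 3 lower. Of 5 expressed feedback genes, 3 were higher and 2 lower (60% higher, against 56.9% of all expressed genes), with a median of 0.04. They ran from Cop1 (-0.06) and Rchy1 (-0.02), both ubiquitin ligases, to the phosphatase gene Ppm1d (0.11) and Triap1 (0.26).

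Regulators upstream of p53 differed little as a group. Of 17 expressed kinases, acetylases and other modifying enzymes, 13 were higher and 4 lower, with a median of 0.05. That is 76.5% higher against 56.9% of all expressed genes, and after loess subtraction 11 were higher and 6 lower, against 47.4% higher over all expressed genes. Chek1, the checkpoint kinase of replication stress, read 9.60 on the array titled KO and 9.09 on the array titled WT, a difference of 0.51. Its 3 expressed sets ran from 0.49 to 0.73, and it was 0.39 with all its sets averaged. Among all expressed genes 0.681% were higher by 0.5 or more. Smyd2, a lysine methyltransferase that acts on p53, followed at 0.37. The acetylase gene Kat2b (-0.20, but -0.03 with all its sets averaged and -0.08 with plain _at sets only) and the histone methyltransferase gene Kmt5a (-0.14, and 0.07 with all its sets averaged) were the lowest.

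Genes acting on MDM2 were higher in 8 and lower in 3 of 11 expressed cases (72.7% higher, against 56.9% of all expressed genes), with a median of 0.10. Daxx, an adaptor that links the deubiquitinase USP7 to MDM2, was the lowest and read 10.83 on the array titled KO and 11.19 on the array titled WT (-0.36). Rassf1 (-0.11) was next lowest, with its 3 expressed sets between -0.11 and 0.23 and a value of -0.01 with all its sets averaged. The deubiquitinase genes Usp2 (0.31) and Usp7 (0.22) were the highest, and all 7 expressed sets of Usp7 were higher (0.06 to 0.36). Cdkn2a, whose ARF product sequesters MDM2, was below the level for expression at 5.26 and 5.23.

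Family and partner genes were higher in 4 and lower in 2 of 6 expressed cases (66.7% higher, against 56.9% of all expressed genes), with a median of 0.09. The family genes Trp63 (5.78 and 5.86) and Trp73 (6.29 and 6.48) were below the level for expression. The repair adaptor gene Trp53bp1 (0.20) and Trp53bp2 (0.18) were the highest. The 5 expressed sets of Trp53bp1 ran from -0.01 to 0.20, and its value was 0.01 with all its sets averaged and 0.02 with plain _at sets only. For Trp53bp2 the average of all sets was 0.09. Ppp1r13l, which encodes the p53 inhibitor iASPP, was the lowest (-0.21), followed by Ing1 (-0.04, and -0.17 with plain _at sets only). Among 7 expressed paralogs of the members 5 were higher and 2 lower (71.4% higher, against 56.9% of all expressed genes) with a median of 0.09, from Ccng2 (-0.12) and Phlda1 (-0.11) to Zmat2 (0.11) and Zmat1 (0.20).

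**Figure D3:**
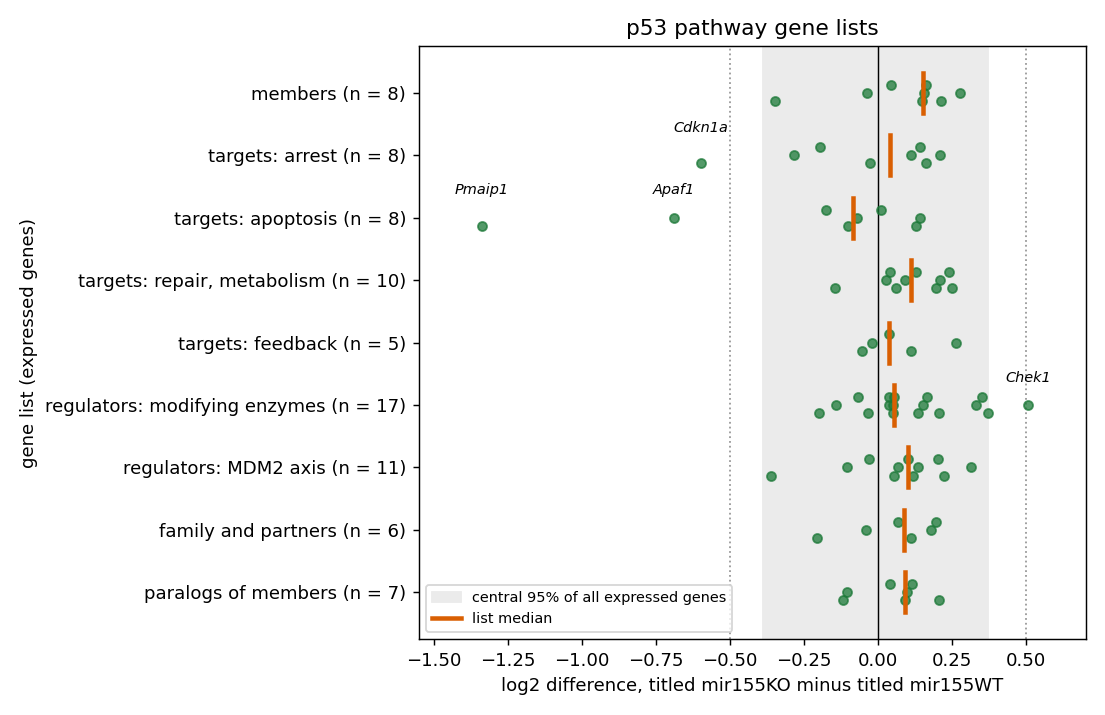
Log2 difference, array titled mir155KO minus array titled mir155WT (horizontal axis), of every expressed gene in the members and in 8 lists of p53 pathway genes (vertical axis); points are genes, orange bars list medians, the grey band the central 95% of all expressed genes, and dotted lines mark -0.5 and 0.5. Pmaip1 (-1.34), Apaf1 (-0.69) and Cdkn1a (-0.60) lie below -0.5 and Chek1 (0.51) above 0.5, and no member passes either line.

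Markers of some other cell types also differed between the arrays. The counts below stand against 56.9% higher on the array titled KO and a median of 0.03 over all expressed genes. B cell markers were higher on the array titled KO in 8 of 9 expressed cases (median 0.18), with a linear intensity, summed here and below over all measured markers of a list, of 38081 against 33886 on the array titled WT. Macrophage and monocyte markers were lower in 6 of 8 (median -0.22, 1617 against 1874), and dendritic cell markers in 4 of 5 (median -0.27, 10590 against 12081). Of those 8 macrophage and monocyte markers 7 reached the level for expression on both arrays. Fcgr1 (6.69 and 6.89) reached it only on the array titled WT. Cd14 (6.85 and 7.21), Cd68 (6.88 and 7.12) and Lyz2 (6.88 and 7.12) lay near it, and all of these are among the 6 lower. The 2 expressed stem and progenitor markers of 8 measured were lower (median -0.28, 3424 against 4579). That sum rests mostly on Slamf1 (11.52 and 11.97), while Kit and Cd34 were below the level for expression. Among the expressed dendritic cell markers Batf3 (8.75 and 8.38) was the 1 that was higher. The dendritic cell sum rests mostly on Ccr7 (12.26 and 12.34) and Bst2 (11.81 and 12.12). These sums thus follow a few genes rather than the whole lists. T cell markers were higher in 3 and lower in 3 of 6 (median -0.01; 1530 against 1532), and the 2 expressed neutrophil markers were lower (median -0.06; 831.5 against 823.8 over all 10). Itgam among the macrophage markers was below the level for expression, as were 4 of 9 dendritic cell markers. The part of these shifts in the differences of Trp53inp1, Zmat3 and the other members was not tested.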

How the data were processed

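RNA was labelled with the Affymetrix 3′ IVT Express kit, per the labels' protocols. The authors deposited log2 intensities for 45101 probe sets on 2 arrays. The unit was read from the values (3.09 to 15.4), and the sources used here do not give the summarisation or normalization. The sorted values of both arrays differed by at most 0.063, so a difference in total RNA per cell would not be visible. The number of arrays, 1 per group, limits the precision, and no replicate spread exists.

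Probe sets were named from the platform annotation: 34945 name a single gene, 932 several and 9160 none, and 64 are controls. By Entrez number 34741 matched RefSeq genes of GRCm38.p6, and 0 symbols changed. Differences are the array titled KO minus the array titled WT. A gene took its singly named probe set of highest mean, and 10717 genes at or above 6.71 counted as expressed. The members and lists were chosen with earlier results of these data known, so their contrasts with the whole set of expressed genes are descriptive only. Named are all members and, of each pathway or paralog list, the 2 highest, the 2 lowest and every expressed gene at or past 0.5, plus Mir155hg; other genes were chosen after their values were seen. Listed genes without a singly named set were not analysed here. The functions were tested on simulated data. Alternatives were averaged probe sets, plain _at sets, quantile normalization, loess subtraction (span 0.3), no filter and a filter at the 75th percentile. Software was statsmodels 0.14.6 and NumPy 2.4.6, with pandas 2.3.3, under Python 3.11.15, and figures used matplotlib 3.10.9.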

Additional observations from a re-analysis of the deposited data

How the results depend on the processing

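No paired analysis was possible because each group holds 1 array, and no array could be left out. The planned pseudocount did not apply to log2 values. With no replicates, a value counted as moved when it shifted by 0.084 or more, and a count when it changed by over 1.5 times. The count of members higher was 6 under 4 of the 6 alternatives and 4 with plain _at sets (7 members left) or the filter at the 75th percentile (6 members left). The members' median difference was 0.067 with averaged sets and 0.028 with plain _at sets.

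For the lists, Chek1 alone made the regulator count at 0.5 or more, which was 0 with averaged sets, plain _at sets, quantile normalization and loess subtraction. With plain _at sets 5 genes of the MDM2 axis were higher and 1 feedback gene was lower. With the stricter filter (75th percentile) 10 of 20 remaining targets were higher: 1 arrest gene (median -0.11) and 3 repair and metabolism genes among them; 3 paralogs were higher and 0 lower. With no filter 5 apoptosis genes were higher and 4 family genes lower. Repair and metabolism genes lower numbered 3 after loess subtraction and 2 with averaged sets. The filters change which genes are counted; otherwise the cause was not tested. Over all expressed genes, those higher by 0.5 or more numbered 73, but 45 with averaged sets and 24 with the stricter filter. Those lower numbered 140, but 85 with the stricter filter and 252 with none. Of 229 values of 41 named genes under the alternatives, 216 moved by less than 0.084, and 3 had the opposite sign (Ccng1 -0.01 with plain _at sets, Ddit4 -0.0037 after loess subtraction, Kmt5a 0.07 with averaged sets). Signal near the level for expression limits Sfn and the dimmer sets.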
